A study of Mus musculus with 2 samples.

Results

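The genes described here are 9 regulators of formative and post-implantation epiblast: Otx2, Pou3f1, Fgf5, Sox3, Zic2, Sall2, Foxd3, Grhl2 and Sox4. They were taken by name from the 30774 gene identifiers of a mouse expression array, and all 9 were present with 1 entry each. They were selected on the measured difference between these arrays (the log2 fold change of epiblast genes), so their values are given as a description and without a test. The study grew mESCs in serum medium with LIF, a cytokine acting through Stat3, and added CHIR99021 (CHIR), which blocks GSK3 and so turns on Wnt/β-catenin signaling, to the second culture. The labels state the B6 strain, an origin in the inner cell mass of E3.5 embryos and 12 h with or without CHIR, whereas the culture methods describe 46C mESCs. The concentration of CHIR on the arrays is not given in the sources used here. Each condition had 1 array, so no spread between cultures is known and the differences stand without replicates or p-values.

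When an embryo implants, its epiblast leaves the naive state of mESCs and passes through a formative state before the germ layers are laid down. Otx2 and Pou3f1 (also called Oct6) are transcription factors known to help mESCs make this transition, and Fgf5 is the growth factor gene most widely used to mark it. Grhl2 opens enhancers of epithelial genes at this time, while Foxd3 is a forkhead repressor and Zic2 a zinc finger factor of the primed network. Sox3 and Sox4 belong to the Sox family of DNA-binding proteins, and Sall2 is a zinc finger factor related to Sall4.

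On the beadchip, RNA abundance is read as the brightness of beads carrying a gene's probe (signal intensity, in arbitrary units), after subtraction of the background. A detection p-value gives the share of negative control beads that were at least as bright, and a gene counted as detected when it was under 0.01. Signals of different probes cannot be set against each other, so only the difference between the arrays is described for each gene. There were 9021 detected identifiers on the LIF array and 9174 on the other, and the 95th percentiles of the signal were 3093 and 3077. Of 6 mESC markers, 5 were detected on both arrays (Pou5f1, Nanog, Zfp42, Dppa3 and Esrrb). The exception was Sox2, with signals of 441.2 in LIF and 400.2 with CHIR and detection p-values of 0.0503 and 0.276. Sox2 is read by several probes whose p-values appear to have been combined. Such identifiers could be called undetected at a high signal. Of the 7430 sorted as such by their p-values, 278 had a signal of at least 1000 on an array without being detected on either. Axin2, a feedback target of Wnt/β-catenin signaling, was 3.75-fold higher on the array labelled LIF plus CHIR, with signals of 314.1 in LIF and 1178 in LIF plus CHIR.

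Of the 9 regulators, 6 were detected on both arrays and 3 on neither. All 6 had a lower signal with CHIR, and 3 of them (Otx2, Pou3f1 and Grhl2) were at least 1.5-fold lower. None was at least 1.5-fold higher. The study set this limit for genes upregulated by CHIR or by Stat3, and here it was applied in both directions. Among all 9615 identifiers detected on at least 1 array, 2.88% were at least 1.5-fold lower (277) and 2.64% at least 1.5-fold higher (254). Among the 8580 detected on both arrays, these shares were 2.65% and 2.37%. As the regulators were chosen with this difference known, nothing can be read from their share. The median log2 fold change (LIF plus CHIR over LIF) was -0.65 over the 6 detected regulators, with a range from -2.98 to -0.36, and 0.00 over all 9615 identifiers.

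**Figure D1:**
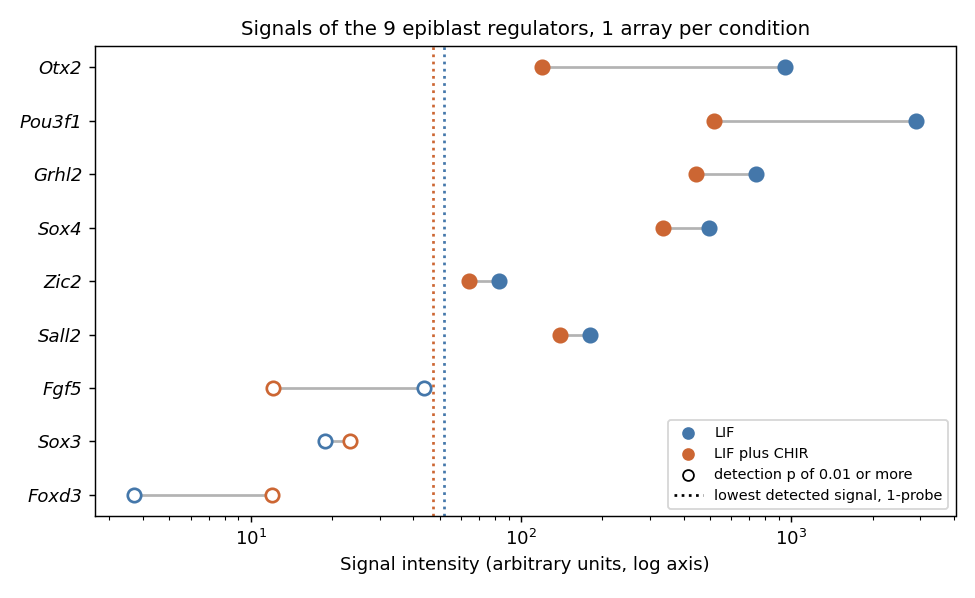
Signal intensity (arbitrary units, log axis) of the 9 regulators in LIF (blue) and LIF plus CHIR (orange), 1 array each, without error bars because there are no replicates; open circles were not detected at 0.01, and dotted lines mark the weakest signal that a single-probe identifier needed for detection (51.9 in LIF, 47.1 in LIF plus CHIR). The widest gaps among detected genes are those of Otx2 (947.4 to 119.7) and Pou3f1 (2902 to 516.2), while Fgf5, Sox3 and Foxd3 lie left of both lines.

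Otx2, a homeodomain factor that drives the exit from the naive state, had a signal of 947.4 in LIF and 119.7 in LIF plus CHIR. The signal with CHIR was 12.6% of that in LIF, a 7.91-fold lower value (log2 fold change -2.98). Under the main settings this was the largest fall among the 9615 identifiers tested, a rank lost under the normexp background correction fitted on all identifiers (log2 fold change -0.84). The detection p-value of Otx2 was 0 on each array. Its remaining signal in LIF plus CHIR was 2.54 times the lowest signal detected there with 1 probe (47.1). Otx2 was thus detected on both arrays.

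Pou3f1, a POU factor of the formative and early neural epiblast, had a signal of 2902 in LIF and 516.2 in LIF plus CHIR. It was 5.62-fold lower with CHIR (log2 fold change -2.49), with 17.8% of the LIF signal left. Among the 8580 identifiers detected on both arrays, 3 were at least 5-fold lower, or 0.035%. Otx2 and Pou3f1 were a pair of these, and the other was Gadd45g, a stress-inducible gene named here after its value was seen, with signals of 1939 and 336.9.

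Grhl2, a Grainyhead-like factor of epithelial cells, had a signal of 737.8 in LIF and 442.8 in LIF plus CHIR. It was 1.67-fold lower (log2 fold change -0.74) and the nearest to the 1.5-fold limit of the genes past it. Sox4, a Sox C group factor, stayed just short of the limit, with 495.8 in LIF and 335.5 with CHIR, 1.48-fold lower (log2 fold change -0.56). Of all tested identifiers, 145 were lower by more than Grhl2 and 305 by more than Sox4. In the range where the brighter signal was 100 to 1000, which holds Otx2, Grhl2, Sox4 and Sall2, 3.63% of the 4301 identifiers detected on both arrays were at least 1.5-fold lower. From 1000 upward, where Pou3f1 lies, 0.997% of 3211 were, and under 100, where Zic2 lies, 3.65% of 1068.

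**Figure D2:**
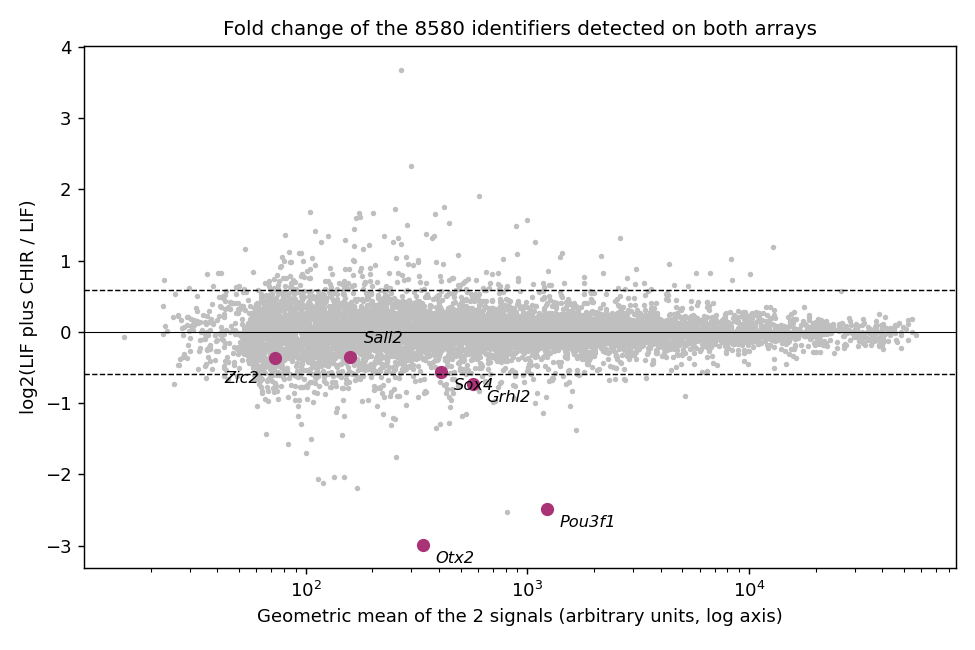
Each grey point is 1 of the 8580 identifiers detected on both arrays, with the geometric mean of its signals (log axis) against log2 of LIF plus CHIR over LIF; dashed lines mark 1.5-fold and purple points the 6 detected regulators. Otx2 (-2.98) and Pou3f1 (-2.49) lie at the lower edge of all points, and Sall2 and Zic2 (each -0.36) inside the dashed lines.

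Sall2 and Zic2 had smaller differences. Sall2, a zinc finger factor, had 179.4 in LIF and 139.9 with CHIR, 1.28-fold lower. Zic2, which binds enhancers of the primed state, had 82.7 in LIF and 64.3 with CHIR, 1.29-fold lower, at detection p-values of 0.00101 and 0.00116. Both lay inside the 1.5-fold limit, and 758 of the tested identifiers were lower by more than Sall2.

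The array's own background is one part of the measurement error. Fitted on identifiers with 1 probe, the background spread (s.d.) was 15.7 on each array, or 22.2 for a difference of 2 signals. The difference between the arrays was 107.6 times this spread for Pou3f1, 37.3 times for Otx2, 13.3 times for Grhl2 and 7.23 times for Sox4. It was 1.78 times for Sall2 and 0.83 times for Zic2, so these differences were not clearly larger than background noise alone. For Sox4 and Zic2, read by several probes, the spread of their mean signal can differ from that of a single probe. Otx2, Pou3f1, Grhl2 and Sall2 had detection p-values of 0 on each array, which leave their number of probes open. The same limit holds for them. The other parts of the measurement error and the variation between cultures come on top of the background and were not measured.

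Fgf5, Sox3 and Foxd3 were not detected at 0.01 on either array, and they have no fold change. Fgf5 was the nearest to detection, with a signal of 43.9 and a detection p-value of 0.0224 in LIF against 12.1 and 0.184 in LIF plus CHIR. In numbers of negative controls, taken as 936, 21 were at least as bright as Fgf5 in LIF and 172 in LIF plus CHIR. The difference of 31.8 was 1.43 times the background spread, so it was not clearly larger than background noise alone. Sox3, which acts with Sox2 in the epiblast and the neural plate, is read by several probes, so its detection call is less certain. It had 18.8 in LIF and 23.3 in LIF plus CHIR, at detection p-values of 0.277 and 0.0422. Foxd3 had 3.70 and 12.0, at 0.285 and 0.185. Both had a higher signal with CHIR, by 0.20 and 0.37 times the background spread, which for Sox3 can differ from that of a single probe.

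By position, 3 of the 9 genes lie on chromosome 14 in the array annotation, Otx2 in band 14qC1, Sall2 in 14qC2 and Zic2 in 14qE5. Their log2 fold changes ranged from the largest among the regulators to the smallest of a detected one. RefSeq promoters (build GRCm38.p6, from 250 bases before to 50 after a transcription start) were matched for 5 of the 9 genes: Otx2 with 4 starts, Sall2 with 2, and Fgf5, Foxd3 and Sox4 with 1 each. The TCF/LEF motif CTTTGAT, read on both strands, was found in 0 of these 9 promoters and in 3.73% of the 32851 promoters in the table. The octamer core ATGCAAA, the site of POU factors, was likewise found in 0 of 9 and in 4.63% of all. These shares say only that the letters are not in these windows, and 2 of the Otx2 windows overlap each other.

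The promoters differed in their CpG content, as shown by the 250 bases before the start of the most distal Otx2 transcript, of Sox4 and of Fgf5. They show the regulator with the largest difference, one just short of the 1.5-fold limit and one that was not detected. Otx2 is at chr14:48667645-48667894 on the minus strand, Sox4 at chr13:28953700-28953949 on the minus strand and Fgf5 at chr5:98253934-98254183 on the plus strand. Each is written 5′ to 3′ along its gene, with CpG dinucleotides in capitals.
Otx2: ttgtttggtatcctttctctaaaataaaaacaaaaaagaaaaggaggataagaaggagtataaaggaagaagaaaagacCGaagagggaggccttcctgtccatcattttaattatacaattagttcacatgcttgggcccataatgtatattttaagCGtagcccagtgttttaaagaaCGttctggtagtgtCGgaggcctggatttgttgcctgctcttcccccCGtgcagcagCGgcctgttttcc
Sox4: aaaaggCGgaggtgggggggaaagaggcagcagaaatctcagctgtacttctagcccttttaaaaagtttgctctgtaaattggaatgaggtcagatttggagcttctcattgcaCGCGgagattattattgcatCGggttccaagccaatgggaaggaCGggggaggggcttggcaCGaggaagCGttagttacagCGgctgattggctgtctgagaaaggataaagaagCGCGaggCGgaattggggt
Fgf5: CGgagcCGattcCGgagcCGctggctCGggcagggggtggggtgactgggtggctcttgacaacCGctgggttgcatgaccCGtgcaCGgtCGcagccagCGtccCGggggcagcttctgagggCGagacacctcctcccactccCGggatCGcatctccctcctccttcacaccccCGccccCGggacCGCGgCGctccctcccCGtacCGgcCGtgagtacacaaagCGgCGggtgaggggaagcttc
The stretches hold 6 CpG dinucleotides for Otx2, 11 for Sox4 and 24 for Fgf5. Over the whole windows of 300 bases, the 4 Otx2 promoters had 6, 8, 11 and 16, Foxd3 had 25, and the median of all promoters was 7. The detected genes Otx2, Sox4 and Sall2 thus had at most 16 CpG dinucleotides per window, and the undetected Fgf5 and Foxd3 had 29 and 25. With 5 genes this is a description of these windows.

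Relatives of the regulators in their own gene families were read on the same arrays. Of 24 relatives, 23 were matched to the array and 10 were detected on at least 1 array. Of the 10, 3 were at least 1.5-fold lower with CHIR and none at least 1.5-fold higher, and their median log2 fold change was -0.22. Over all 9615 identifiers, 2.88% were lower and 2.64% higher by this limit, and the median was 0.00. The relatives too were listed with earlier results known. Of the 24, 4 are also in the list of other epiblast genes.

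Otx1, the closest relative of Otx2, had 88.5 in LIF and 96.6 in LIF plus CHIR (log2 fold change 0.13), and Crx was not detected. Pou3f3 and Pou3f4 were not detected, while Pou5f1 (Oct4), the POU factor of pluripotency, had 12347 and 11309 (-0.13). In the Grhl family the values had the same sign, with 207.5 and 158.8 for Grhl3 (-0.39). Grhl1 was detected in LIF alone, with 163.4 and 137.9, and was 1.18-fold lower by the plain ratio of these signals.

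The Sall family was spread on both sides of 0. Sall1 had 651.3 in LIF and 432.5 with CHIR, 1.51-fold lower. Sall4, a core factor of mESCs, had 6521 and 5980 (log2 fold change -0.12). Sall3 had 270.0 and 404.1, a log2 fold change of 0.58, just inside the limit. Zic1, Zic4 and Zic5 were not detected.

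Of the Fgf genes other than Fgf5, Fgf4 and Fgf15 were lower with CHIR. Fgf4, the main autocrine Fgf of mESCs, had 712.7 and 430.1, 1.66-fold lower. Fgf15, a post-implantation gene, had 115.2 in LIF and 41.6 in LIF plus CHIR, where it was not detected (detection p-value 0.0203). Against the weakest signal detected there with a single probe it was at least 2.45-fold lower. Fgf8 was not detected. Of the Sox relatives, Sox12 had 401.8 and 351.9 (log2 fold change -0.19), and Sox11 had 1701 and 1707 without passing detection, its several probes giving p-values of 0.0351 and 0.0266.

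A second list held 17 other genes of formative and post-implantation epiblast, all matched to the array. Of these, 11 were detected on at least 1 array, 4 were at least 1.5-fold lower with CHIR and 0 at least 1.5-fold higher. The shares over all 9615 identifiers were 2.88% lower and 2.64% higher. The median log2 fold change of the list was -0.49, beside 0.00 over all identifiers. This list too was written with earlier results of these arrays known.

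The 4 lower genes were Fgf15, Hes6, Pim2 and Tcf15. Hes6, a Hes-related factor of neurogenic cells, had 574.0 in LIF and 330.2 with CHIR, 1.74-fold lower. Tcf15, a bHLH factor that primes mESCs for differentiation, had 3499 and 2186, 1.60-fold lower. Pim2, a serine/threonine kinase, had 89.3 and 55.3, 1.62-fold lower at low brightness.

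Dnmt3b, the de novo DNA methyltransferase of the epiblast, had 15438 in LIF and 10870 in LIF plus CHIR (log2 fold change -0.51). Utf1, a chromatin factor of pluripotent cells, had 5585 and 3972 (-0.49), and Nodal, the epiblast's TGF-β ligand, had 2642 and 2030 (-0.38). These values lay inside the 1.5-fold limit. The Ets factors downstream of Fgf signaling had higher signals with CHIR, with 4470 and 5619 for Etv4 (0.33) and 5033 and 5436 for Etv5 (0.11). Tead2 had 3587 and 3941 (0.14). Nes, a neural progenitor filament, was detected with CHIR alone at a signal of 44.8. This was below the weakest signal detected with a single probe on the LIF array. Nes was therefore counted as no change (log2 fold change 0), also in the median of the list.

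**Figure D3:**
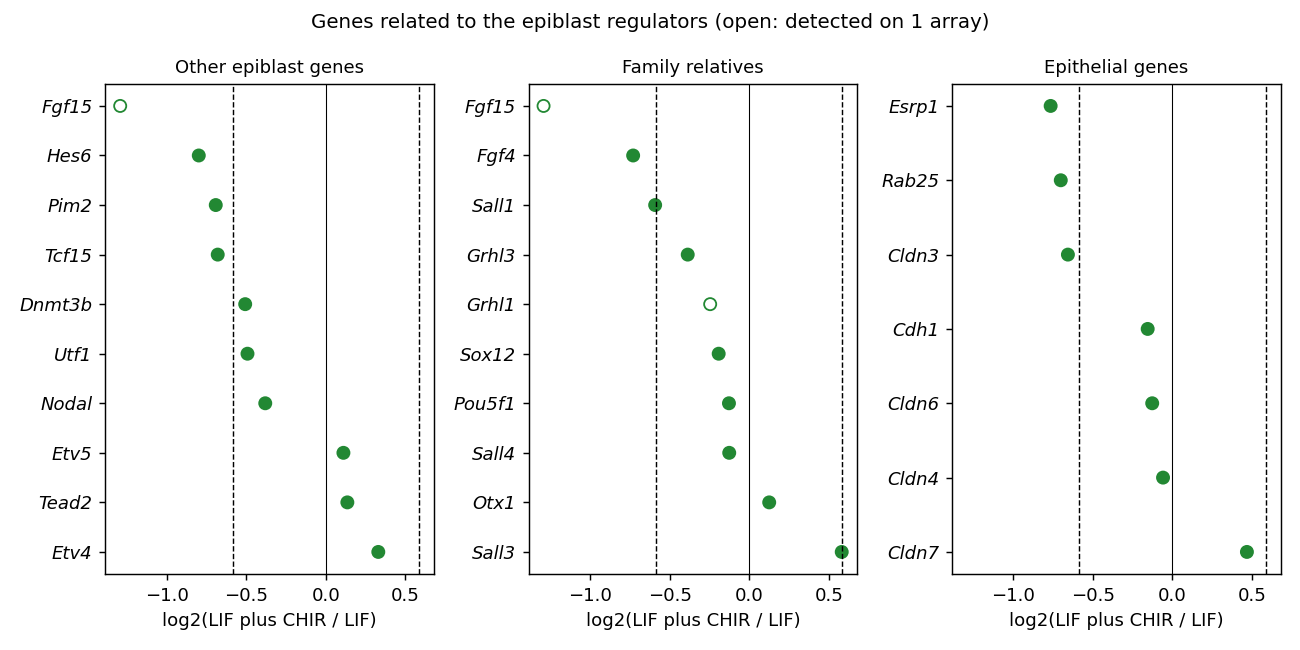
Log2 of LIF plus CHIR over LIF for the detected other epiblast genes, family relatives and epithelial genes, 1 array per condition. Open circles were detected on 1 array, with a bound as the value for Fgf15 and the plain ratio for Grhl1. Nes, counted as no change, is not drawn, and dashed lines mark 1.5-fold. No gene lies right of the upper limit, and Fgf15 lies farthest left (-1.29).

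Epithelial genes known as Grhl2 targets were described next to Grhl2 itself. Of 8 such genes, 7 were detected on both arrays, 3 of them at least 1.5-fold lower and 0 at least 1.5-fold higher, with a median log2 fold change of -0.16. Among all identifiers detected on both arrays, 2.65% were lower and 2.37% higher by this limit. The list was chosen with earlier results of these arrays known. Esrp1, an epithelial splicing regulator, had 178.3 in LIF and 104.9 with CHIR, 1.70-fold lower. Rab25, a small GTPase of epithelial trafficking, had 1235 and 759.5, 1.63-fold lower. Cldn3, a tight junction claudin, had 219.7 and 139.4, 1.58-fold lower. The other junction genes lay inside the limit, with log2 fold changes of -0.16 for Cdh1 (E-cadherin), -0.13 for Cldn6, -0.06 for Cldn4 and 0.47 for Cldn7.

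Markers of other cell types that a culture could hold were read as well. None of 6 feeder fibroblast markers was detected, and Col1a1, Col3a1, Lum and Dcn had signals below 0 on both arrays. Thy1, read by several probes, had 222.3 in LIF and 225.3 with CHIR without passing detection (p-values of 0.354 and 0.302), and it makes up most of the summed fibroblast signal. Of 6 primitive endoderm markers, 1 was detected (Sox7, 45.9 in LIF and 59.0 in LIF plus CHIR). Of 6 neural markers, Nes was detected with CHIR, while Sox1 and Pax6 were not detected. Of 5 trophoblast markers, Krt7 was detected at 57.3 and 54.5, and Cdx2, also a primitive streak gene, at 93.5 with CHIR against an undetected 23.6 in LIF. Ascl2, read by several probes, had 90.7 and 52.3 without passing detection. With values below 0 set to 0, the summed signals of each list on the LIF and the LIF plus CHIR array were 247.0 and 241.9 for fibroblasts, 131.1 and 117.2 for primitive endoderm, 92.4 and 126.5 for neural cells and 171.6 and 200.2 for trophoblast. Their part in the values of the 9 regulators was not tested. In bulk RNA, fewer cells that express Otx2 or Pou3f1 and less RNA per cell cannot be told apart.

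For 5 of the 6 detected regulators, the size of the difference depended on which identifiers the background correction was fitted on. For Pou3f1 it depended little on this. Under a normexp correction fitted on all identifiers, whose background spread of 588.4 in LIF and 585.8 in LIF plus CHIR is far above that from identifiers with 1 probe, Otx2 had a log2 fold change of -0.84 and Grhl2 -0.31, the latter inside the limit. Sox4 had -0.16, Sall2 -0.03 and Zic2 -0.02, so that the last pair showed almost no difference. Pou3f1 had -2.40 under that correction, a larger fall than that of Otx2. The same correction fitted on identifiers with 1 probe gave -2.83 for Otx2, -2.46 for Pou3f1 and -0.72 for Grhl2. The fits differ only in the 7430 identifiers with several probes, so the wide spread came with these. Of them, 278 had a signal of at least 1000 without being detected on either array, against 0 of those treated as read by 1 probe. The sorting favours this contrast, since an identifier with detection p-values of 0 on both arrays was placed with those of 1 probe.

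**Figure D4:**
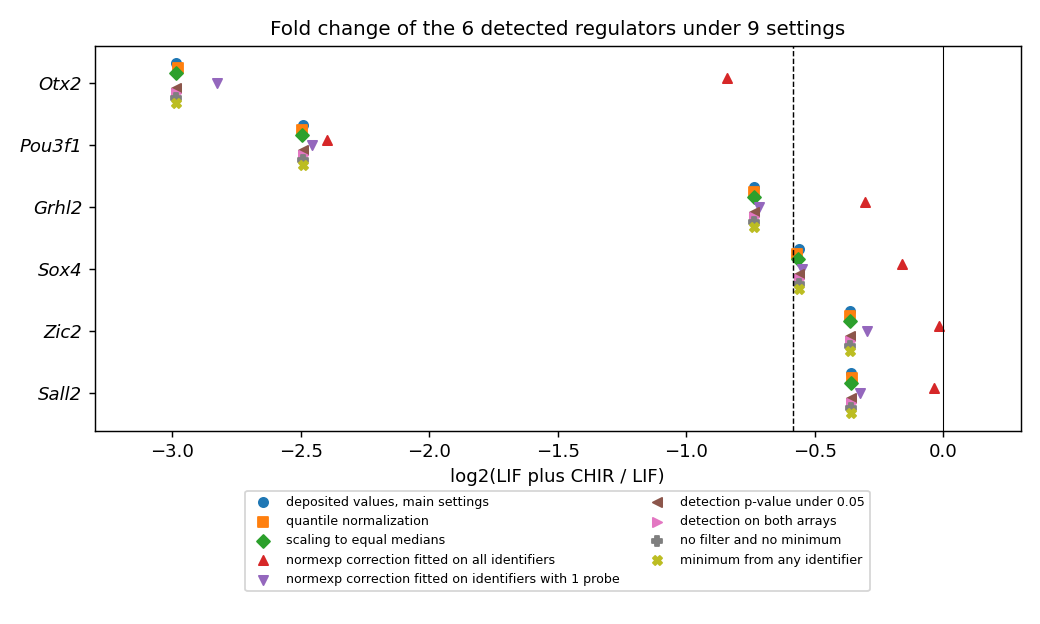
Log2 of LIF plus CHIR over LIF for the 6 detected regulators (rows) under the main settings and 8 alternatives (symbols, spread vertically for visibility); the dashed line marks 1.5-fold lower. The symbols of each gene lie close together apart from normexp fitted on all identifiers (red triangles), which moves Otx2 from -2.98 to -0.84 and Pou3f1 from -2.49 to -2.40. Alternatives of detection, filter and minimum leave these values unchanged by construction.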

How the data were processed

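Total RNA from the LIF and the LIF plus CHIR culture was hybridized to Illumina beadchips, 1 for each. The authors deposited background-subtracted signal intensity on a linear scale, 1 value per identifier and array, in 2 tables. Of these, 1 is named as normalized and 1 as non-normalized, and the latter was used here. Their shared values differed in 0 cases, so the names do not settle whether the signals were normalized between the arrays. The normalization method is not given in the sources used here. The authors also deposited detection p-values against the negative controls. The step between p-values gave 936 controls. Identifiers whose p-values were whole numbers of controls, within 0.001, on each array were treated as read by 1 probe (23344), the others (7430) as read by several. A p-value of 0 passes this rule. An identifier with 0 on both arrays was thus treated as read by 1 probe whatever its number of probes.

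Groups came from the sample titles. In Python 3.11.15 (pandas 2.3.3, numpy 2.4.6), the log2 ratio of LIF plus CHIR to LIF was taken wherever detection passed 0.01 on an array. Where 1 array missed detection, the detected signal was set against the higher of the other signal and the weakest signal detected there with a single probe, and a ratio on the wrong side of 1 was counted as no change (378 identifiers). No test was possible with 1 array per condition, and precision is limited by the number of arrays. The alternatives used limma 3.58.1 in R 4.3.3 and an offset of 16 for normexp. Figures were drawn with matplotlib 3.10.9. The calculation was tested on simulated data. The members and lists were chosen with earlier results of these data known. All 9 regulators were named, and from the lists the largest differences and the relatives of a described gene. Protein sequences were not analysed here, and an item of the lists is not reported here.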

Additional observations from a re-analysis of the deposited data

How the results depend on the processing

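No paired analysis was possible with 1 array per condition. Of the 9 regulators, 3 were at least 1.5-fold lower under the main settings. The count was 3 under quantile normalization, scaling to equal medians, normexp correction fitted on identifiers with 1 probe, detection at 0.05, detection required on both arrays and a minimum taken from any identifier. It was 2 under normexp correction fitted on all identifiers and at a limit of 2-fold, and 4 with no filter and no minimum, where Fgf5 entered with a log2 fold change of -1.86. Without filter and minimum 1 regulator was at least 1.5-fold higher, Foxd3 with 1.69, a ratio of signals near background on both arrays.

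The median log2 fold change of the regulators, -0.65, was -0.23 under normexp correction fitted on all identifiers, -0.53 with detection at 0.05 (8 genes) and -0.56 with no filter and no minimum (9 genes), the latter 2 through the addition of undetected genes. Over all identifiers, the counts lower and higher were 277 and 254. They were 48 and 55 under normexp correction fitted on all identifiers, 445 and 409 with detection at 0.05, 2091 and 2046 with no filter and no minimum, and 45 and 64 at a limit of 2-fold. With a minimum taken from any identifier they were 385 and 391. None of the 6 detected regulators changed direction, but the alternatives could hardly show such a change. Those of detection, filter, minimum and limit leave the value of a gene detected on both arrays unchanged by construction. The others rescale the same signals, so the direction says nothing on repeated cultures. Low signal limits Zic2, Sall2 and the undetected genes most.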

Other observations

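Genes of the states on either side of the formative epiblast were also read. Of 15 naive pluripotency genes, 12 were detected on both arrays, 4 were at least 1.5-fold higher with CHIR and 1 was at least 1.5-fold lower, with a median log2 fold change of 0.46. The background over all identifiers was 2.64% higher and 2.88% lower. The 4 higher genes were Tbx3 (176.7 in LIF and 414.3 in LIF plus CHIR), the nuclear receptor Nr5a2 (226.8 and 458.1), Klf2 (4332 and 7689) and Tfcp2l1 (7658 and 13485). The lower gene was Fgf4, described above. Of 12 primitive streak genes, 6 were detected on at least 1 array and 5 were at least 1.5-fold higher with CHIR. The 5 were Cdx1 (75.2 and 963.2), T, Wnt8a (50.4 and 129.0), Evx1 (116.5 and 191.4) and Cdx2, described above. Cdx1 differed by 12.8-fold. T was undetected without CHIR, at a signal of 8.05, and reached 394.5 when CHIR was added, which makes it at least 7.6-fold higher. Gsc, detected with CHIR alone, was at least 1.23-fold higher. These lists were chosen with earlier results of these arrays known.

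Klf5, a Krüppel-like factor of mESCs read by several probes, had signals of 7356 in LIF and 8295 in LIF plus CHIR, yet detection p-values of 0.272 and 0.486. No identifier treated as read by 1 probe had a signal of at least 1000 without being detected on either array (0 of 23344). Of the 7430 treated as read by several, 278 did. As detection p-values of 0 on both arrays place an identifier with those of 1 probe, the sorting itself favours this contrast.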
